A study of Mus musculus with 16 samples.

Results

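Chromatin that was open in every kept library and lay away from promoters was described here. Across 14 libraries of C2C12iMyoD1 cells, 26213 union regions had been open in at least 1 library, and 2414 of them met both conditions and are called members below. Members were chosen by their peaks: each library's list was reduced to its 14710 strongest peaks by −log10 p, overlapping peaks of the 14 lists were merged, and a region was kept when all 14 lists had a peak in it and its summit lay more than 1 kb from any GENCODE M21 transcript start. Presence and strength of peaks were thus selected on, and the number of members and the fact that they are open are descriptions and not results. The regions used for comparison were 3654 promoter regions (summit within 1 kb of a start) with a peak in all 14 libraries and 13464 distal regions with a peak in 1 to 13 libraries.

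ATAC-seq, in which a transposase inserts sequencing adapters into accessible DNA, was performed to ask how a raised MyoD1 dose changes chromatin in proliferating and in differentiating cells. C2C12 is a mouse skeletal myoblast line, and C2C12iMyoD1 is a polyclonal derivative that keeps its own Myod1 and carries a Halo-MyoD1 transgene under a doxycycline-inducible promoter. All 4 groups carry that transgene: GM no dox (growth medium, untreated, 4 libraries), GM +dox (growth medium, doxycycline for 24 h, 4 libraries), DM no dox (serum starvation for 24 h, untreated, 4 libraries) and DM +dox (serum starvation and doxycycline for 24 h, 4 libraries). Seeding was 75000 cells a well for GM and 300000 for DM, so medium and density cannot be told apart, and replicate 1 of both DM groups, which the study excluded for quality, was not used to choose members.

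Distal open regions are mostly enhancers or insulators, short stretches where sequence-specific factors hold nucleosomes away. AP-1, a dimer of Fos and Jun family proteins that binds TGANTCA, keeps many enhancers accessible in cultured mesenchymal cells. MyoD1, the basic helix-loop-helix factor that drives myogenesis, binds the E-box CAGCTG as a dimer with an E protein. TEAD factors (CATTCC) recruit the Hippo effectors YAP and TAZ, RUNX factors bind TGTGGTT, and CTCF marks insulators and loop anchors that are often shared between cell types.

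The kept lists held 14710 to 58587 peaks, and background coverage recovered from fold enrichment and p ran from 0.339 to 1.13 fragments per base. GM no dox replicate 1 had the shortest list. Of 7 myoblast markers, Myod1 and Chrna1 had a promoter peak in all 14 libraries, Des in 13, Cdh15 in 10, Itga7 in 9, Myf5 in 6 and Msc in 3. Ptprc, Cdh5, Alb, Sox10 and Neurod1, which mark other lineages, had none. No 2 lists were identical.

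The sequences below show what members look like at the summit. They were chosen from the tallest members, by mean normalized height, that hold AP-1, CAGCTG, TEAD, RUNX or CTCF motifs, with each member used once and a CTCF member within 1 kb of a RefSeq start passed over. Each is given as 201 bases of GRCm38 (the assembly of mm10, RefSeq sequence) centred on the summit, plus strand, with every match to the motif named on the line, on either strand, in capitals.
AP-1, chr8:79679039-79679239, between genes, near Tpd52-ps: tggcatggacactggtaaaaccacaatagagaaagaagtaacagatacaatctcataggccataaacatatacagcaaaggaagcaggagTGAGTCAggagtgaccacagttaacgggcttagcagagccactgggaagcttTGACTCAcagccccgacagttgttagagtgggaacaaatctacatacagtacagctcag
AP-1, chr15:22733163-22733363, intron of Cdh18: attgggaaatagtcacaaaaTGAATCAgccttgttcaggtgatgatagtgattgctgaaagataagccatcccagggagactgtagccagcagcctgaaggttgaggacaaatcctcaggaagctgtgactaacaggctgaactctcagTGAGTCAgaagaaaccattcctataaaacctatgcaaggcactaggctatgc
CAGCTG, chr4:108058240-108058440, introns of Podn and Scp2: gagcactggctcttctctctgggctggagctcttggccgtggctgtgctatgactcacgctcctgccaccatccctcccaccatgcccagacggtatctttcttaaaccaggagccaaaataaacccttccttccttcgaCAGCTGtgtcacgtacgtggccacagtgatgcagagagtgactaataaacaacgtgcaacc
CAGCTG, chr15:7931711-7931911, intron of Wdr70: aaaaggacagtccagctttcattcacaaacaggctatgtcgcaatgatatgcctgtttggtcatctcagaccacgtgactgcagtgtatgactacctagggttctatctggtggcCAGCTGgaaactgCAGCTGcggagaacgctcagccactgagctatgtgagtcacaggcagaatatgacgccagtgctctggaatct
TEAD, chr15:62698717-62698917, intron of Gm41333: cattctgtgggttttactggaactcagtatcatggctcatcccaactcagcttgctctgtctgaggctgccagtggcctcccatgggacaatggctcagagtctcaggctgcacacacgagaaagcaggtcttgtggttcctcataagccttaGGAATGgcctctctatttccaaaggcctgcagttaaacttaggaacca
RUNX, chr8:106718276-106718476, intron of Tango6: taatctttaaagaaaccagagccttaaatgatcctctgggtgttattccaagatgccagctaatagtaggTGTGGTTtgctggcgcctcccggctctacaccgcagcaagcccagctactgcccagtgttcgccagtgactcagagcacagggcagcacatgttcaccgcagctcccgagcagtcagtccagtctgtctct
CTCF, chr19:5529452-5529652, intron of Gm31166: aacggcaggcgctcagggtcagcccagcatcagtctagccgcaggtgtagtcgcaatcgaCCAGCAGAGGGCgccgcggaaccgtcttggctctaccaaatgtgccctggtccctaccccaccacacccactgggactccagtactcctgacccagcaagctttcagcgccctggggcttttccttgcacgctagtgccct

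The region near Tpd52-ps was the tallest member. It held 2 AP-1 matches, and its fold enrichment over local background was 15.4, 27.4, 16.5 and 24.8 in GM no dox, 32.1, 28.8, 23.6 and 20.9 in GM +dox, 17.2, 20.9 and 25.5 in DM no dox, and 28.4, 27.8 and 26.2 in DM +dox. Both members shown for CAGCTG also held an AP-1 match, and the Wdr70 window held CAGCTG at 2 places. The tallest CTCF member, in an intron of Zfp286 and 158 bp from a RefSeq start, came 23rd in the order of height. The tallest one away from RefSeq starts came 139th, and its fold ranged from 6.49 to 26 over the 14 libraries. Members of the tallest 5 that are not shown lay in Myof (myoferlin, a membrane protein of myoblast fusion), near Sema3e and near Gm23626. The Myof summit was 27.6 kb from any GENCODE start but 68 bp from a RefSeq start.

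AP-1 was the commonest motif at members. TGANTCA occurred within 100 bp of the summit in 1351 members (56.0%), in 48.3% of the other distal regions, in 7.80% of the promoter regions, in 33.9% of all union regions and in 5.57% of 4828 flanking windows of the same length, taken 1 kb to each side of the members. The central base of the AP-1 match was C or G, the form preferred by Fos and Jun dimers, in 1203 members, and A or T only in 148. At least 2 AP-1 matches lay in 359 members (14.9%), against 9.10% of the other distal regions. Among all 7-base words, TGACTCA, which is the same AP-1 element, showed the largest excess over the flanks (49.8% of members, 3.52% of flanks), and ACCACAG, the leading word with no AP-1 core, is part of a RUNX-like element (16.5% and 4.89%). Distal regions with a peak in 13 libraries had TGANTCA in 55.7%, close to members, so the AP-1 share is not particular to members. Regions are not replicates, and these shares were compared without a test.

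CAGCTG, TEAD and RUNX motifs were each more frequent at members than in their flanks, by smaller margins. CAGCTG lay in 606 members (25.1%), 22.4% of other distal regions, 11.2% of promoter regions, 18.7% of union regions and 10.7% of flanks. Within 50 bp of the summit the share was 13.2% for both members and other distal regions, so the gap between those classes was seen only in the wider window. CATTCC was present in 603 members (24.98%, against 21.4% of other distal regions, 17.0% of union regions and 9.76% of flanks), and TGTGGTT in 369 (15.3%, against 13.4%, 9.66% and 4.93%). For these 3 motifs the share in members was above that in other distal regions, which was above that in promoter regions.

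**Figure D1:**
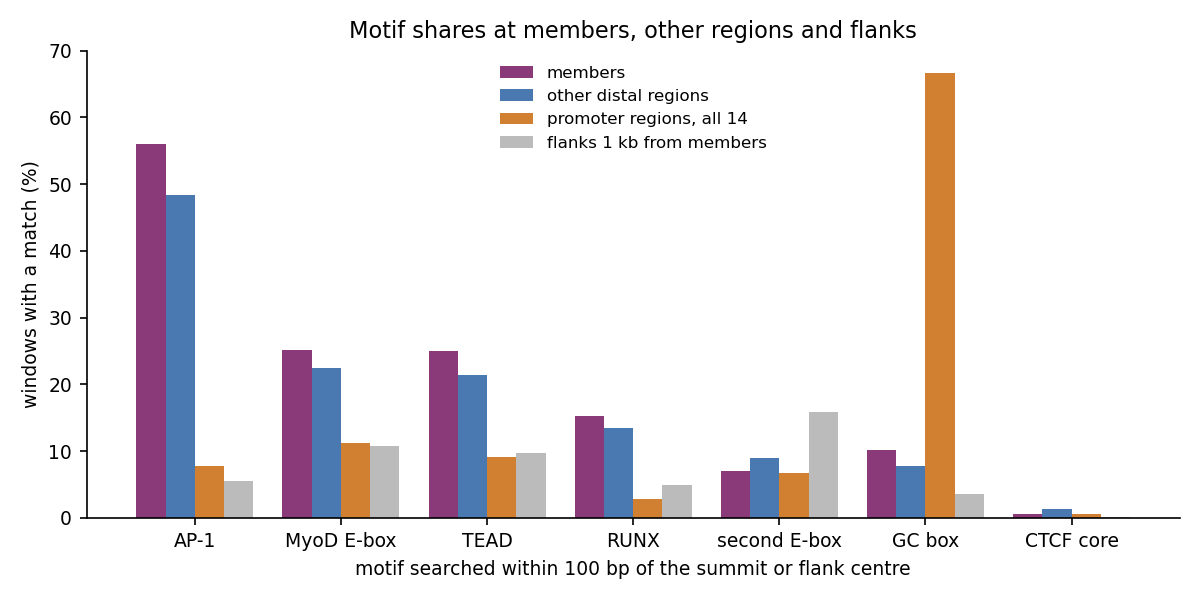
Percent of 201-base windows with at least 1 match to each motif (y axis) in members, in distal regions with a peak in 1 to 13 libraries, in promoter regions with a peak in all 14, and in flanks 1 kb from members. AP-1 stood at 56.0% in members and 5.57% in flanks, the GC box at 66.7% in promoter regions, and the second E-box, CAGGTG, was the 1 motif of the 7 plotted that was scarcer at members (6.96%) than in their flanks (15.8%).

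CTCF was rare. The CTCF core (12 bases, with ambiguous positions) was found in 13 members (0.539%), 1.36% of other distal regions, 0.575% of promoter regions, 1.14% of all union regions and 0.145% of flanks. A looser core with any base at the ambiguous positions was found in 42 members (1.74%), 2.94% of other distal regions and 2.82% of union regions, so the order between members and other distal regions was kept. By number of libraries with a peak, the core went from 1.79% of distal regions open in 1 library to 0.539% in all 14. The change was not steady: the share was 0.166% at 8 libraries, 1.13% at 12 and 0.692% at 13. AP-1 went from 42.5% at 1 library to 56.0% at 14. Of 16 genes at loci known for CTCF-bound insulators or imprinting (H19, Igf2, Kcnq1ot1, Meg3, Hox and protocadherin genes among them) and of 10 genes for CTCF and cohesin proteins, none had a member in the gene or within 20 kb. Of all protein-coding genes 9.40% had one, so in lists this short a count of 0 is near that background.

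Other motifs set members apart from promoters. GGGCGG, the GC box bound by Sp and KLF factors, lay in 247 members (10.2%), 66.7% of promoter regions and 28.5% of union regions. ACCGGAAG (ETS), which marks many housekeeping promoters, was found in 7 members and 4.65% of promoter regions (1.93% of union regions), AAGATGGCG (YY1) in 3 members and 1.92% of promoter regions (1.04% of union regions), and the NRF1 element in 2 members and 2.16% of promoter regions (0.919% of union regions). TGACGTCA (CRE) was present in 18 members (0.746%, 1.55% of union regions) and CACGTG in 93 (3.85%, 5.21% of union regions). MEF2, the partner of MyoD1 at muscle enhancers, matched in 9 members (0.373%), 0.691% of other distal regions and 0.500% of union regions, NF-I in 14 (0.580%, 0.366% of union regions) and TTGCGCAA (CEBP) in 1 (0.0414%, 0.179% of union regions). None of the 15 motifs lay in 319 members (13.2%), against 18.2% of other distal regions.

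AP-1 and CAGCTG overlapped in part: 317 members had both, 1034 had AP-1 only, 289 had CAGCTG only and 774 had neither. TEAD matched in 23.0%, 22.5%, 29.1% and 27.5% of these 4 classes in that order, and RUNX in 11.04%, 14.2%, 16.3% and 18.1%. Median ranks by −log10 p ran from 3821 to 4223.25 over the classes, with CAGCTG only the strongest. By normalized log2 height the order differed: in every kept library the median was higher with AP-1 only than with CAGCTG only. In GM no dox replicate 1 these medians were 3.96 and 3.88. Among the 483 members with the best mean rank AP-1 was found in 55.3%, and among the 483 with the worst in 55.3%. CAGCTG was at 28.6% and 22.6%. AP-1 matches lay a median of 35 bp from the summit, CAGCTG 45.5 bp and TEAD 43.5 bp.

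Members were broader than other distal regions (median width 744 bp against 502 bp) but lay at like distances from genes. Width is the span of merged peaks, so a peak in more lists makes a region broader by construction. The median was 421.5 bp for distal regions with a peak in 1 to 6 libraries and 637 bp for 7 to 13. The median distance to a GENCODE start was 11.5 kb for members and 11.3 kb for other distal regions, and 212 members (8.78%) were over 50 kb away. Introns held 1301 members (53.9%), 1004 (41.6%) were between genes, 30 in coding exons, 42 in UTRs and 37 in exons of non-coding transcripts. Although none was within 1 kb of a GENCODE start, 135 members (5.59%) were within 1 kb of a RefSeq start. In those 135, AP-1 was found in 41.5% and the GC box in 28.1%, against 56.8% and 9.17% in the other 2279 members. Median GC content in the 201-base window was 52.2% in members, 49.8% in other distal regions and 64.7% in promoter regions, and 126 members (5.22%) were CpG island-like (GC over 50%, CpG ratio over 0.6) against 79.8% of promoter regions. Chromosome 17 had the highest share of its distal regions among the members (20.0%) and chromosome X the lowest (9.05%, 19 members).

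Members lay at some genes of the AP-1 and Hippo pathways. Of 21755 protein-coding genes, 9.40% had a member inside or within 20 kb. The lists below were chosen with earlier results of these data known, no test was made of them, and gene length was not matched. The AP-1 list of 12 genes also holds Atf3, Batf3, Maff, Mafk and Bach1, beside Fos and Jun family genes. Of the 12, 5 had members (8 in all): Fos, Fosl1, Junb, Jund and Maff. Of 14 TEAD and YAP genes, 5 did: Tead1 with 2 members, and Ankrd1 (a YAP target also known as CARP), Lats2 (a Hippo kinase), Tead3 and Wwtr1 (TAZ) with 1 each.

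In the other lists, fewer genes had members. Of 18 myogenic transcription factors and inhibitors, 4 had members: Mef2a, Six4, and Tcf12 and Tcf4, which encode E proteins that pair with MyoD1, while Myod1, Myog, Myf5 and Myf6 had none. Fusion and adhesion genes counted 4 of 16 (Cadm4, Cdh23, Cdon, a receptor that promotes myogenesis, and Itga5, the fibronectin receptor subunit), matrix genes 3 of 14 (Col5a1 and Sparc among them) and sarcomere genes 2 of 23 (Ldb3, a Z-disc protein, and Tnni1, slow troponin I). AP-1 motifs occurred in 19 of these 29 members and CAGCTG in 7.

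The Fos member lay 18.5 kb upstream of the gene at chr12:85454958-85455985, with a fold of 5.04 at the lowest, 16.4 at the median and 21.0 at the highest over the 14 libraries, and had no AP-1 match. Fosl1 had members 17.5 and 2.42 kb upstream, the first with an AP-1 match. The Tnni1 member, 8.32 kb upstream (chr1:135770907-135771829), and the Tcf12 member, 16.3 kb downstream (chr9:71825892-71826705), held both AP-1 and CAGCTG, with median folds of 13.01 and 15.2. At the Ankrd1 member, 9.25 kb upstream (chr19:36128733-36129994, median fold 12.6), CAGCTG, TEAD and RUNX matched together.

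Spacing between members was described without a background to set it against. Another member lay within 20 kb of 390 members (16.2%), and the median distance to the nearest one was 112808 bp. The largest groups, with no step over 20 kb between neighbours, had 5 members each: 1 of 53.3 kb at Socs3, the suppressor of cytokine signalling (chr11:117923159-117976505), and 1 of 60.7 kb at S100a10 (chr3:93537043-93597746). Between gene ends, Gm20388, a gene model of 4435 kb that spans many other genes, held 22 members, Ablim1 (an actin-binding LIM protein) and Zmiz1 (a transcriptional coregulator) 6 each, and Gse1 and Trio (a guanine exchange factor) 5 each. At Ablim1 the 6 members had median folds from 8.74 to 16.05, and at Zmiz1 from 10.1 to 18.9.

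The 2 libraries left out of the rule were read at the same places. Members were chosen for strong peaks, and the other distal regions were not matched to them in strength. A higher share at members is therefore a description and not a test of the rule. DM +dox replicate 1 had a peak at 2084 members (86.3%, Wilson 95% interval 84.9 to 87.6%) and at 32.7% of the other distal regions. DM no dox replicate 1, whose list had 1287 peaks, had a peak at 390 members (16.2%, 14.7 to 17.7%) and at 0.780% of the other distal regions. With only the 1287 strongest peaks of DM +dox replicate 1, the counts became 485 members (20.1%) and 1.22% of the other distal regions. The intervals cover counting error only, and with 1 library of each kind no test was made. Both libraries had a peak at 373 members, at least 1 of them at 2101, and neither at 313. Over the numbers of kept libraries the share was highest at 14 for both, and from 13 to 14 libraries it went from 73.2% to 86.3% in DM +dox replicate 1 and from 3.92% to 16.2% in DM no dox replicate 1.

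**Figure D2:**
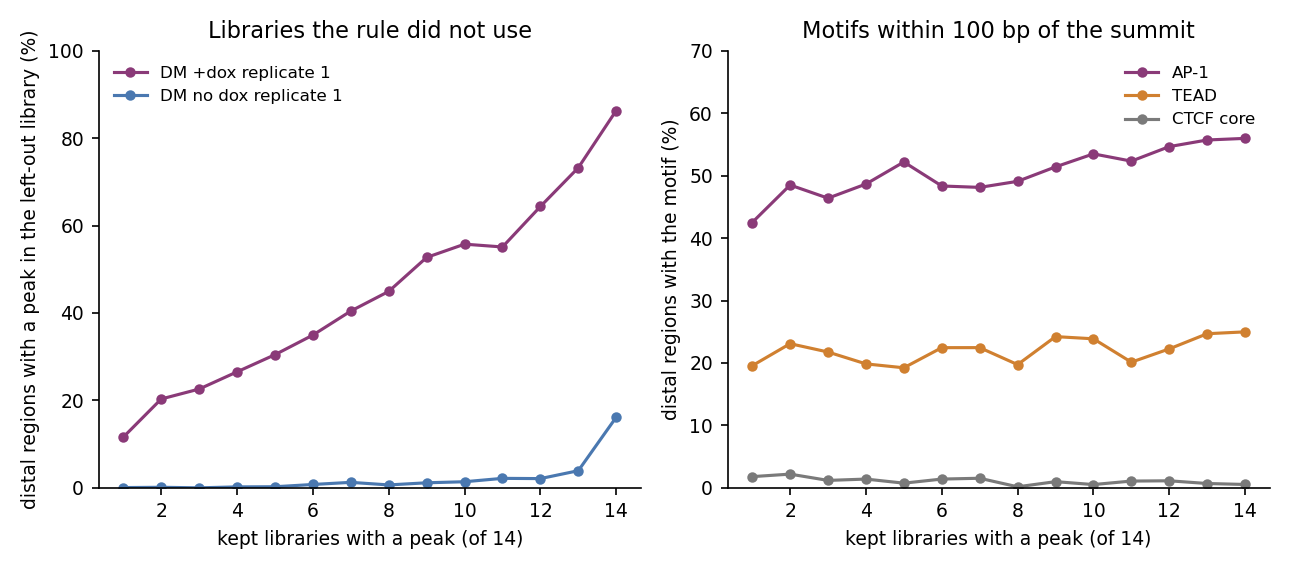
Distal regions grouped by the number of the 14 kept libraries with a peak (x axis), members at 14. Left: percent with a peak in each library the rule did not use, from 11.6% to 86.3% for DM +dox replicate 1. Right: percent with an AP-1, TEAD or CTCF core motif within 100 bp of the summit, where AP-1 stood at 42.5% for 1 library and 56.0% for 14.

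Before scaling, height at members differed widely between libraries of 1 group. The median fold enrichment of members was 7.56, 17.1, 10.1 and 15.6 in GM no dox (replicates 1 to 4), 17.3, 18.6, 14.7 and 13.3 in GM +dox, 11.9, 11.3 and 15.6 in DM no dox and 20.7, 17.1 and 16.5 in DM +dox (replicates 2 to 4). The groups overlapped except that all 3 DM +dox libraries lay above all 3 DM no dox libraries. Promoter regions moved with members: the ratio of the 2 medians was 0.948 to 1.11 in the 6 libraries of replicate numbers 1 and 2 and 0.895 to 0.946 in the 8 of numbers 3 and 4. Accordingly, members held 301 to 504 of the 1000 strongest peaks in the former and 124 to 309 in the latter. The labels do not say what the numbers stand for, and differences within numbers are given below where a region is named.

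**Figure D3:**
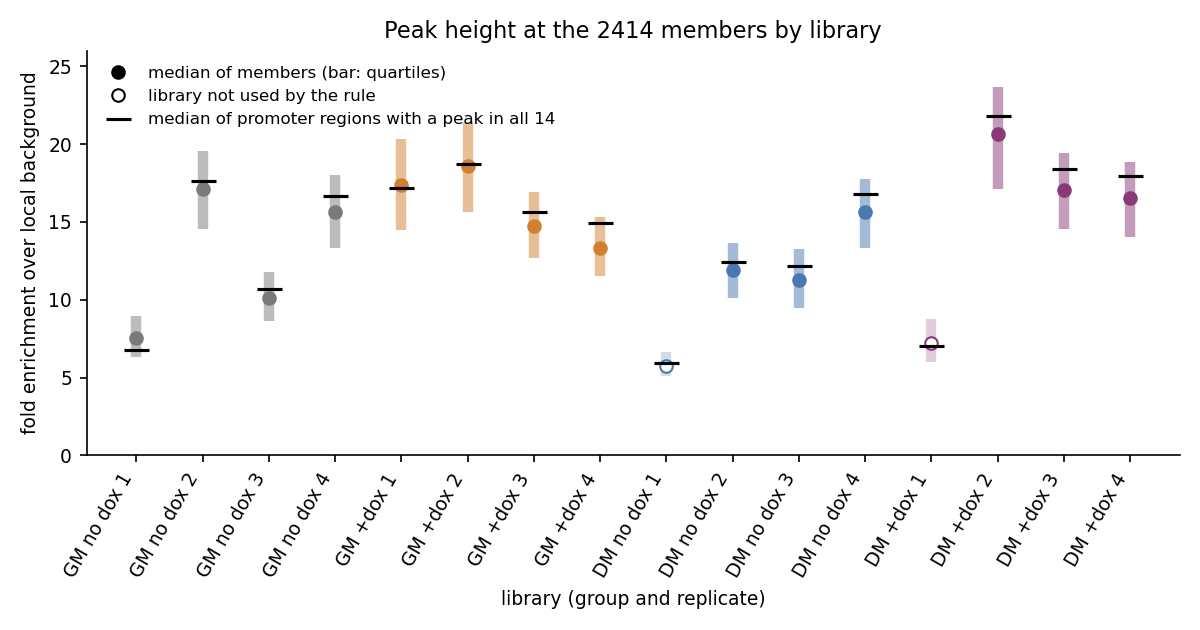
Fold enrichment over local background (y axis) at the members in each of the 16 libraries (x axis); points are medians, bars quartiles, black dashes medians of the promoter regions. GM no dox replicate 1 had the lowest kept median, 7.56, and open points mark the 2 libraries not used by the rule.

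After scaling, members varied less between libraries than the other distal regions that could be fitted. Heights were quantile normalized over the 11011 regions with a deposited peak in all 14 kept libraries, which include all 2414 members, so none was lost to this filter. The within-group SD of log2 height had a median of 0.18 in members, 0.17 in promoter regions and 0.25 in the 3115 other distal regions fitted. From the lowest to the highest of 14 libraries the median member spanned 1.56-fold, against 1.96-fold for the other distal regions fitted, and 2265 members (93.8%) stayed within 2-fold against 54.4%. These other regions had lower peaks (median log2 height 3.41 against 3.84), the rule itself asked for a strong peak in every library, and the part of either in the difference was not tested.

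After quantile normalization, doxycycline changed no member past the threshold in growth medium. That step removes a shift shared by most regions, so no fit here can show one. Members also had to have a strong peak in every library, which limits how far they can differ. The limma fit called 0 of 2414 members at an adjusted p under 0.05, as it did 0 of 11011 regions (0%). At an unadjusted p under 0.05, 87 members were higher and 66 lower (6.34%, against 6.13% of all regions). The median log2 difference of members was -0.02 (quartiles -0.11 and 0.08), with a median half-width of the 95% interval of 0.27. With −log10 p as the height 1 member was called, and without GM no dox replicate 4, 2 were, while the other alternatives called 0. The counts over all regions under these alternatives are not given here, so these calls are not read as a result about members. All 4 GM +dox libraries lay above all 4 GM no dox libraries at 39 members (1.62%, against 1.22% of all regions) and below them at 44 (1.82%, against 1.2%).

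After the same normalization, doxycycline changed no member past the threshold in differentiation medium either. Before it, every DM +dox library had a higher member median than every DM no dox library. The fit cannot show whether that shift is due to dox. Here 0 members and 0 of 11011 regions (0%) were called by limma, 0 members were called under every alternative run, and 57 members were higher and 93 lower at an unadjusted p under 0.05 (6.21%, against 6.70% of all regions). The median log2 difference was -0.03 (quartiles -0.15 and 0.09). The DM +dox libraries were all above the DM no dox libraries at 121 members (5.01%, against 6.26% of all regions) and all below at 268 (11.1%, against 8.08%). For the interaction between dox and medium, limma called 0 members and 0 of 11011 regions (0%), and every alternative run called 0 members, with 15 members above and 27 below at an unadjusted p under 0.05 (1.74%, against 2.21% of all regions).

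Between GM and DM, which also differ in seeding density, few members passed the threshold. Without dox, limma called 1 member, lower in DM, among 29 regions called of 11011 (0.263%), and 82 members were higher and 98 lower at an unadjusted p under 0.05 (7.46%, against 10.998% of all regions). With dox it called 0 members among 5 regions called (0.0454%), and 40 members were higher and 98 lower at an unadjusted p under 0.05 (5.72%, against 7.49%). With the replicate number as a block, 7 members were called without dox (3 higher and 4 lower in DM) among 133 regions, and 1 with dox (lower) among 39. With −log10 p as the height the calls at members were 24 (8 higher, 16 lower) without dox and 27 (2 higher, 25 lower) with dox, beside 128 (1.16%) and 139 (1.26%) of all 11011 regions. Median differences of members were -0.00 and -0.03. No member passed 1 log2 unit in any of the 4 comparisons. Without dox, DM libraries lay above all GM libraries at 84 members (3.48%, against 3.83% of all regions) and below at 92 (3.81%, against 4.4%), and with dox above at 98 (4.06%, against 5.07%) and below at 174 (7.21%, against 5.94%).

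**Figure D4:**
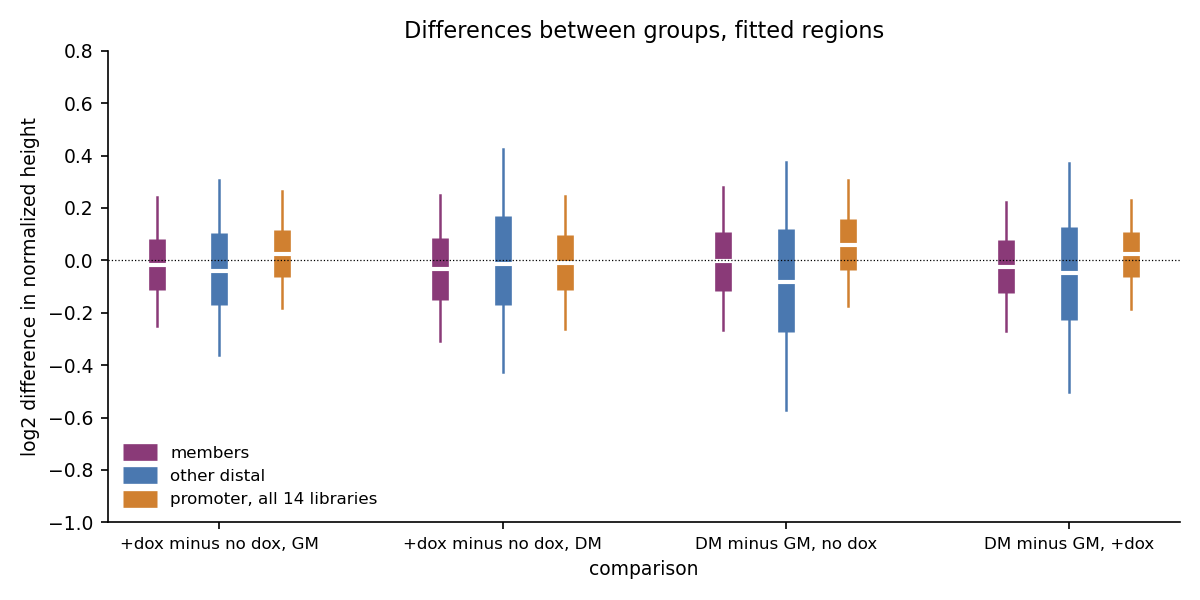
Log2 differences in normalized height (y axis) for the 4 comparisons, in members, in the 3115 other distal regions fitted and in promoter regions with a peak in all 14 libraries; white marks are medians, thick bars quartiles, thin lines the 5th to 95th percentiles. Member medians lay between -0.03 and 0.00, and without dox the other distal regions had a median of -0.08 and promoter regions of 0.06.

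The called member lay between genes on chromosome 1 (chr1:128508787-128509360), 6.08 kb from the start of Gm29597, and held AP-1 and RUNX motifs. Its normalized fold was 22.2, 20.4, 17.3 and 17.8 in GM no dox, 22.2, 20.6, 19.2 and 18.7 in GM +dox, 10.4, 10.5 and 12.7 in DM no dox and 15.5, 14.9 and 14.2 in DM +dox. All DM libraries were below all GM libraries, and DM no dox was below DM +dox. The log2 difference without dox was -0.79 (SE 0.12, limma adjusted p = 0.00556), -1.03 for DM replicate 2 alone against the mean of GM replicates 1 and 2, and -0.60 within replicate numbers 3 and 4. With dox it was -0.44 (SE 0.12, limma adjusted p = 0.237), and the difference between those effects was 0.35 (unadjusted p = 0.0471, limma adjusted p = 0.999). Without DM no dox replicate 3 it was no longer called.

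The members called only with the block were named after their values were seen. Higher in DM without dox were 1 in an intron of Sptb (beta-spectrin, part of the membrane skeleton; chr12:76593699-76594555; log2 difference 0.67, SE 0.15, limma adjusted p = 0.0527, with the block 0.0261), 1 near Gm14871 and 1 in Myom2. Lower were members near Gm40038, near Gm10689 and near Gm15684, the last in a UTR of Crispld2, and lower with dox was 1 in an intron of Card19 (log2 difference -0.51, limma adjusted p = 0.102, with the block 0.0268).

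At the Myom2 member (chr8:15072515-15073305), in the gene of an M-band protein of the sarcomere, CAGCTG and TEAD motifs matched. Its normalized fold was 7.62, 12.7, 11.2 and 12.6 in GM no dox, 18.998, 15.6, 20.4 and 15.05 in GM +dox, 17.3, 15.5 and 17.8 in DM no dox and 17.1, 17.6 and 17.99 in DM +dox. GM no dox lay below the other 3 groups in every library. The dox difference in GM was 0.68 (SE 0.14, limma adjusted p = 0.339), with 0.81 within replicate numbers 1 and 2 and 0.56 within 3 and 4. The differentiation difference without dox was 0.64 (SE 0.15, limma adjusted p = 0.0618, with the block 0.0486). In the same block fit the dox difference had an adjusted p of 0.0893.

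**Figure D5:**
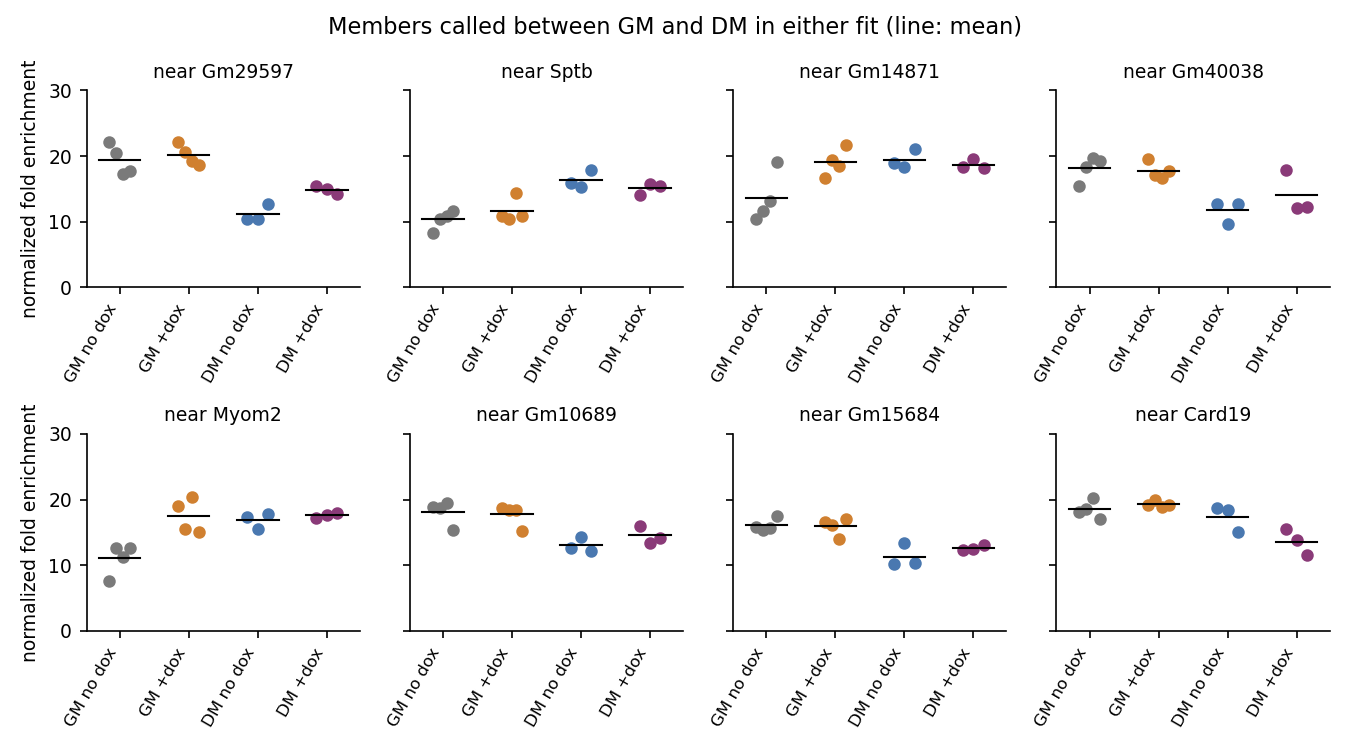
Normalized fold enrichment (y axis) in each kept library, by group (x axis), for the 8 members called between GM and DM with or without the replicate block; lines are group means. At the member near Gm29597 the DM no dox libraries lay at 10.4 to 12.7 and the GM libraries at 17.3 to 22.2, and at the Myom2 member GM no dox lay below the other groups.

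Members were also split by the MyoD1 E-box, without a test. With dox in GM the median log2 difference was 0.01 in members with both AP-1 and CAGCTG, -0.02 with AP-1 only, -0.02 with CAGCTG only and -0.02 with neither, and no member of any class was called. In DM the medians were 0.01, -0.03, -0.07 and -0.05. Among other distal regions fitted, those with CAGCTG only had medians of 0.02 in GM and 0.08 in DM, and all fitted regions -0.00 and -0.00. With median centring the class had -0.00 and 0.03, and all fitted regions -0.02 and -0.03. The sign in GM and the size in DM thus depend on the scaling. With −log10 p as the height, an alternative chosen after seeing the data, the class had 0.10 and 0.13, and all fitted regions 0.01 and 0.02. Under each scaling the class lay above all fitted regions. With −log10 p, CAGCTG-only members had medians of 0.06 in GM and 0.05 in DM, so their sign depends on the measure. At unadjusted p under 0.05 with dox in GM, 17 members with both motifs were higher and 6 lower, 25 with AP-1 only were higher and 30 lower, 18 with CAGCTG only were higher and 6 lower, and 27 with neither were higher and 24 lower, beside 398 higher and 277 lower of all 11011 regions. In DM the counts were 9 and 7, 25 and 37, 8 and 11, and 15 and 38 in the same order, beside 387 and 351 of all regions.

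Near the edge of the rule, ranks differed by a few places. Just inside, the weakest of the 14 ranks was 14708 for a member near Sept11 (fold 10.2 there) and 14704 for one near Snd1 (fold 9.94). Just outside, with a peak in 13 lists, distal regions near Speg (rank 14712 in the remaining list, fold 10.5) and Gm24593 (rank 14726, fold 7.23) missed by a few places. Of 867 distal regions with a peak in 13 lists, 266 lacked only GM no dox replicate 1, and 544 had a weaker deposited peak in the missing library.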

How the data were processed

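ATAC-seq peaks of 16 libraries (4 groups of 4) were used. The authors mapped reads to mm10 with nf-core/atacseq, removed blacklisted regions and called MACS2 narrow peaks in each library. The deposited values are, per peak, a fold enrichment over local background (a ratio), a −log10 p and a −log10 q. No peak ended past a GRCm38 chromosome. Read counts were not used here, and tests for counts were therefore left out.

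Union regions, members and distances to GENCODE M21 starts were computed as described above. A region's height in a library is the highest fold enrichment among the deposited peaks that overlap it. Log2 heights of 11011 regions were quantile normalized and fitted with limma 3.58.1 (R 4.3.3; group means, trended variance), with Benjamini-Hochberg adjustment over all 11011 and a threshold of 0.05. Scanner and fit were tested on simulated data. Background coverage was solved from fold and p for peaks with −log10 p under 30. Motifs were searched on both strands, and overlaps between motifs were not removed. Alternatives covered list length, motif window and form, scaling, height measure, replicate terms and leaving out each library.

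The members, motifs and gene lists were chosen with earlier results of these data known. Regions were named by height (5 tallest, 2 tallest per motif), by call and by list; those called only with the block were added later. The labels number biological replicates alike in each group. Same-numbered libraries deviated together from their group means (13 pairs, correlations 0.106 to 0.465), so the numbers were taken to pair libraries, although in 2 of the 13 another number correlated best. The fit reported uses group means, as planned, and the fit with the number as a block is given where it changes a call. Nothing in the sources used here says whether replicates were separate cultures beyond that label, so p-values measure the spread between these libraries. Some genes of the marker and matrix lists are not reported here.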

Additional observations from a re-analysis of the deposited data

Results flagged for a closer look

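The 2 GM groups were checked for the normalized fold of each named member and for the members' median fold, median rank and number among the 1000 strongest peaks. In 3 of these 48 checks, all at named members, 1 library lay far from the other 3 by Dixon's test at the 95% level, and chance gives about 1 in 20. Near Gm10689 the normalized fold of GM +dox replicate 4 was 15.3, below 18.4 to 18.8 in the other 3. At the Wdr70 member, nearest to the start of Rpl19-ps6, GM no dox replicate 3 was at 24.1, above 18.9 to 19.8. At the Sptb member GM +dox replicate 3 was at 14.4, above 10.4 to 10.9.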

How the results depend on the processing

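The number of members was 758 with lists of 7355 peaks and 5545 with all deposited peaks, and 2423 to 2680 when 1 library was left out. AP-1 was found in 36.9% of members within 50 bp and 49.8% as TGACTCA alone (54.9 to 56.3% leaving out 1 library). CAGCTG was found in 13.2% within 50 bp, 28.5% of the 758 members and 72.9% as any CANNTG (23.5 to 25.5%), and CTCF in 1.74% with the loose core (0.474 to 0.660%). DM +dox replicate 1 had a peak at 20.1% of members with the shorter list length.

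Without dox, calls between GM and DM at members were 4 with median centring (56 of all 11011 regions, 0.509%), 24 with −log10 p as height (128, 1.16%), 5 with replicate numbers 1 and 2 against 3 and 4 as a term (84, 0.763%), 2 when only the 6068 regions with a strong peak in all 14 libraries were fitted (2, 0.0330%), and 0 to 6 leaving out 1 library (0 calls without DM no dox replicate 3, 2 calls when GM no dox replicate 3 was dropped, 6 calls when it was replicate 4 of that group, 3 without GM +dox replicate 4 and 2 without DM +dox replicate 2). With dox, −log10 p gave 27 calls (139 of all regions, 1.26%). For dox in GM −log10 p gave 1, and leaving out 1 library gave 0 to 2. Counts over all regions are not given for these or for the other calls leaving out 1 library, so they are not set against a background. Pairing libraries by replicate number, as a block, gave 7 calls between GM and DM without dox (133 of all regions, 1.21%) and 1 with dox (39, 0.354%), and changed no other count of member calls. The cause of these changes was not tested. Except that fewer peaks per list make membership stricter by construction, no value here shows one.

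Heights come from peak calls, so weaker accessibility below the callers' threshold was not measured, and 3 to 4 libraries a group set the width of the intervals.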

Other observations

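The E-box CAGGTG, unlike CAGCTG, was scarcer at members than beside them. It matched in 168 members (6.96%), 9.03% of other distal regions, 8.64% of all union regions and 15.8% of flanks. The share was 16.4% in the flanks not mostly repeat-masked. In promoter regions with a peak in all 14 libraries it was 6.79%, so a low share was not particular to members. By number of libraries it went from 10.5% of distal regions open in 1 library to 6.96% at 14. Of 492 words of 6 bases with 4 G or C, it had the largest deficit against the flanks (written as CACCTG on the other strand). Overlapping words came next, such as ACCTGG (8.70% of members, 14.7% of flanks). Among all 2080 words of 6 bases, words rich in A and T had larger deficits, such as TTAAAA (7.71% of members, 20.9% of flanks). This word was singled out after its values were seen, and no test was made.

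The groups of 5 neighbouring members differed in motif content. At Socs3, 1 of 5 held AP-1 and 3 held CAGCTG, with median folds from 9.70 to 16.4, and at S100a10, 3 held AP-1 and 1 held CAGCTG, with median folds from 9.91 to 19.97. All 10 had a peak in DM +dox replicate 1, which the rule did not use. CpG island-like members (126) held AP-1 in 19.05%.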
